A study of Homo sapiens with 6 samples.

Results

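The peaks described here are the 3423 regions that the deposited m6A peak list of TE-10 cells places in a 3′ untranslated region (UTR), out of 15940 peaks in all. They were taken by the list's own location class and by no other value. They carry 2797 different gene or transcript names, called hosts below, of the 8906 names in the list. TE-10 is a human cell line labelled as esophageal epithelium. N6-methyladenosine (m6A) was mapped by antibody enrichment of methylated RNA in cells whose genotype is given as normal, with 1 input library and 2 immunoprecipitated libraries made with antibodies of different catalogue numbers, and no m6A map of knockdown cells was used here. Expression was measured by RNA-seq of polyadenylated RNA in 1 control library with normal genotype, sample title M3NC, and in 2 libraries labelled METTL3-knockdown, sample titles M3sh1 and M3sh2, called knockdown 1 and knockdown 2. Knockdown was by stable short hairpin RNA, the libraries were strand-specific, and the labels do not say whether the control carried a hairpin. Both knockdown libraries were compared with the same control library, and the labels do not say whether any libraries came from separate cultures, so p-values cover no more than the sample-to-sample spread, which may be a technical one.

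m6A is written on nuclear RNA by a complex whose catalytic subunit is METTL3. In mRNA it is known to be dense around the stop codon, in long internal exons and in the 3′ UTR, the stretch after the coding sequence where microRNAs and RNA-binding proteins act on stability, transport and translation. Reader proteins of the YTH family bind the modified base, and in the cytoplasm YTHDF2 recruits the machinery that shortens the poly(A) tail and leads to decay. A peak is a stretch of enriched fragments and can hold several modified sites. The list gives positions, a transcript and a distance to its start for each peak, with no score, enrichment or per-library value, so the peaks have no replicate check and could not be ordered by strength. No genome of the list's coordinates was at hand, so the bases under the peaks were not read.

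The 3′ UTR held 21.5% of all peaks (95% Wilson interval 20.8% to 22.1%, covering counting error only). Coding exons held 5429 peaks (34.1%), introns 3744 (23.5%), 5′ UTRs 1842 (11.6%), the stretch upstream of annotated starts 1249 and the stretch downstream of annotated ends 253. Among peaks in coding exons and UTRs alone, 32.0% were in the 3′ UTR.

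The host records divided the 3′ UTR peaks into 2 kinds. For 2871 peaks (83.9%, 82.6% to 85.1%) the record was an mRNA. The other 552 peaks comprised 316 on non-coding RNA records, 233 on cDNA clones or protein records and 3 on small RNA records. In coding exons 98.3% of peaks were on mRNA records. RefSeq's gene table classed 2401 of the 2797 hosts as protein coding, 64 as long non-coding RNA, 43 as transcribed pseudogenes and 3 as microRNA, and 286 names were not in that table.

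**Figure D1:**
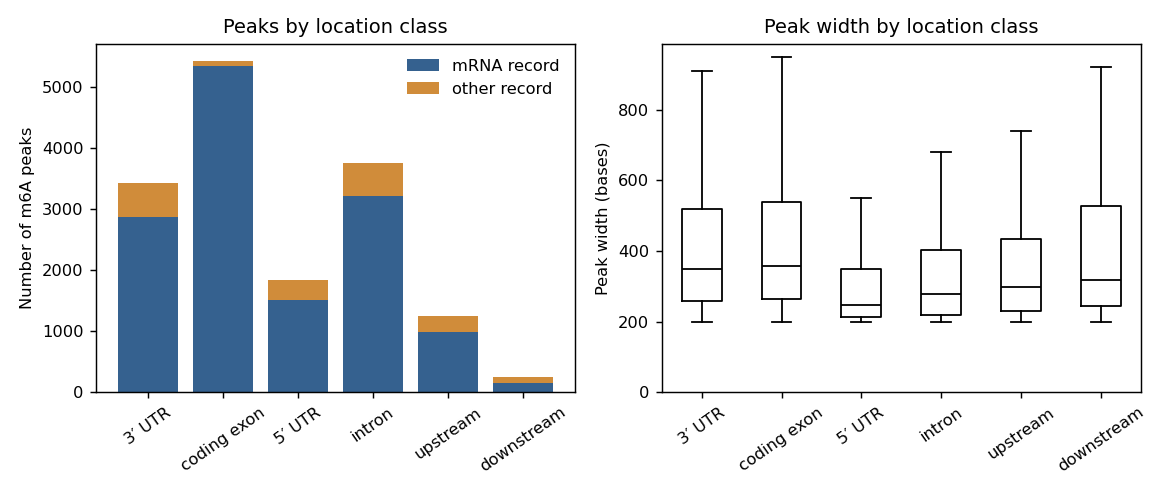
Left, number of m6A peaks in each location class, with peaks on mRNA records in blue and on all other records in orange. Right, peak width in bases by class (box, quartiles with the median as a line; whiskers reach the last value within 1.5 interquartile ranges); the 3′ UTR box (median 349 bases) lies beside that of coding exons (356) and above those of 5′ UTRs (246) and introns (279).

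On records other than mRNA the 3′ UTR class followed the strand of the transcript. Of these 552 peaks, 504 were on plus-strand transcripts (91.3%, 88.7% to 93.4%), while 5′ UTR peaks on such records were on plus-strand transcripts in 19 of 332 cases (5.72%, 3.69% to 8.76%). Put the other way, a plus-strand UTR peak on such a record was called 3′ in 504 of 523 cases and a minus-strand one in 48 of 361. On mRNA records the strands were even, with 50.8% of 3′ UTR peaks and 49.3% of 5′ UTR peaks on plus-strand transcripts. The split held for both larger kinds of record, with 274 of 316 3′ UTR peaks of non-coding RNA records and 228 of 233 of clone or protein records on plus-strand transcripts. How the class was assigned to these records was not tested, and some of them also carry peaks that the list places in coding exons. Number per host, width, distance, shared classes, spacing and median change are also given below for the 2871 peaks on mRNA records, with 2399 hosts. Shares by control value and by gene list, changes by number of peaks and counts past 2-fold are for all records.

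**Figure D2:**
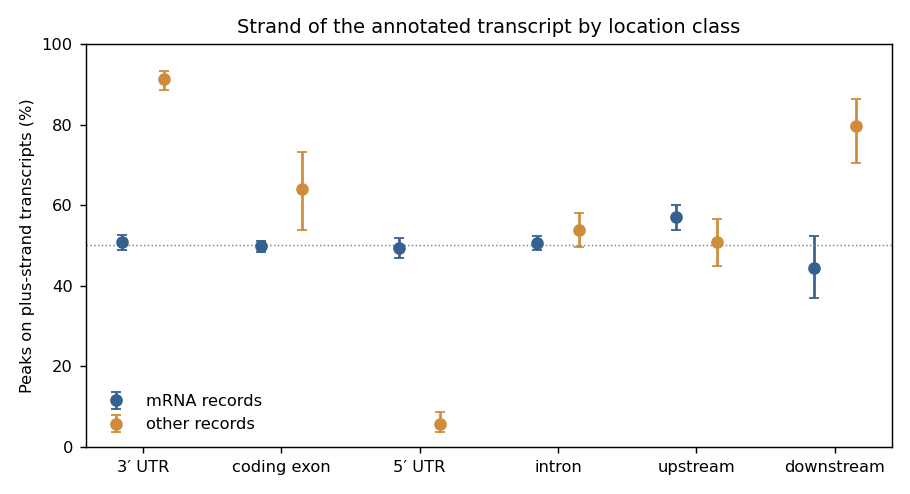
Percent of peaks on plus-strand transcripts in each location class (points, with 95% Wilson intervals as bars), for mRNA records in blue and all other records in orange; the dotted line marks an even split. On other records the 3′ UTR class is at 91.3% and the 5′ UTR class at 5.72%, while both are near the line on mRNA records.

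The host with the most 3′ UTR peaks on an mRNA record was PPARA, the nuclear receptor that turns on fatty acid oxidation genes, with 6. They lay on chromosome 22 between positions 46631774 and 46636991 of the list's coordinates, on the plus strand, and were 199 to 450 bases wide. The first of them lay 224 bases from a peak in the coding exons. The 5 others were within 836 bases of another 3′ UTR peak. CHST3, a sulfotransferase that modifies chondroitin, had 4 peaks between 73768937 and 73772763 on chromosome 10, the first of them 242 bases from a coding exon peak and the widest 820 bases.

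Both hosts with 7 peaks in the class were on non-coding records. TUG1 is a long non-coding RNA, and its 7 peaks were spread from 1781 to 8989 bases after its start on chromosome 22. ERC1 encodes a scaffold protein of secretory vesicle docking, but its listed transcript was a non-coding record. Its first peak was 92021 bases from the start, and the other 6 stood together between 499133 and 503136 bases, at positions 1599102 to 1603839 of chromosome 12. FLJ42627 and FLJ45340, with 5 peaks each, and AK095335 and AK096230, with 4 each, were also on records other than mRNA.

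Most hosts had a single 3′ UTR peak. It was 1 peak in 2310 hosts, 2 in 381, 3 in 83, 4 in 18, 5 in 2, 6 in 1 and 7 in 2, a mean of 1.22 per host. The share of hosts with more than 1 peak was 17.4% (16.1% to 18.9%), against 27.8% (26.4% to 29.3%) for coding exons and 6.96% (5.84% to 8.27%) for 5′ UTRs. Among the 2399 hosts with mRNA records it was 16.0% (14.6% to 17.5%). The lengths of the regions differ between these classes and were not known here, so the counts are per host and not per kilobase.

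The 3′ UTR peaks had a median width of 349 bases, with quartiles of 259 and 520 and a range of 199 to 2494. Coding exon peaks were alike (median 356, quartiles 263 and 538). Peaks in 5′ UTRs were narrower (median 246), as were peaks in introns (279). Of the 3′ UTR peaks 151 were over 1000 bases wide (4.41%) and 91 were at most 200 bases (2.66%), close to the shortest width in the list. On mRNA records the median was 350 bases.

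The widest peak, 2494 bases, was in PIP5K1C, a kinase that makes the membrane lipid PI(4,5)P2, at positions 3630545 to 3633039 of chromosome 19. SMCR8, a partner of C9orf72 in autophagy, had a peak of 2205 bases. The others among the 5 widest were in FLJ90757 (2180 bases, a non-coding record), NDOR1 (2037 bases) and HS6ST1 (2016 bases), a heparan sulfate sulfotransferase. The shortest width, 199 bases, was reached in AKR1E2, APOBEC3F, APOL3 and ASTN2 among others. Width varied little with the number of peaks per host, with medians of 352.5, 336 and 352 bases in hosts with 1, 2 and 3 or more. It was lowest in hosts with a control expression value under 1 (median 293 bases in 314 peaks, of which 1 was over 1000 bases) and highest in those from 5 to 20 (366 bases in 1117 peaks).

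Distance was counted along the genome from the annotated transcript start to the middle of the peak, introns included. For 3′ UTR peaks its median was 22079 bases (quartiles 6431 and 60770), against 16290 for coding exon peaks and 138 for 5′ UTR peaks. The peaks lay under 1 kb from the start in 6.95% of cases, at 1 to 10 kb in 25.4%, at 10 to 100 kb in 52.1% and beyond 100 kb in 15.5%. On mRNA records the median was 28245 bases and 56 of 2871 peaks (1.95%) were under 1 kb. On non-coding records it was 3984.5 bases with 28.2% under 1 kb, and on clone or protein records 1292 bases with 39.1%. The short distances in the class were thus mostly those of records without an mRNA.

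The farthest peak stood 1513811 bases from the start of PDE4D, a cyclic AMP phosphodiesterase, and 235 bases from a coding exon peak of the same transcript. MAGI2 (1434513 bases), AUTS2 (1192878 bases) and PARD3B (1070274 and 1073714 bases) followed, all on mRNA records. At the other end 6 peaks lay 4 to 10 bases from a start, 5 of them on records other than mRNA and 1, at 10 bases, on the mRNA record of ZNF410.

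**Figure D3:**
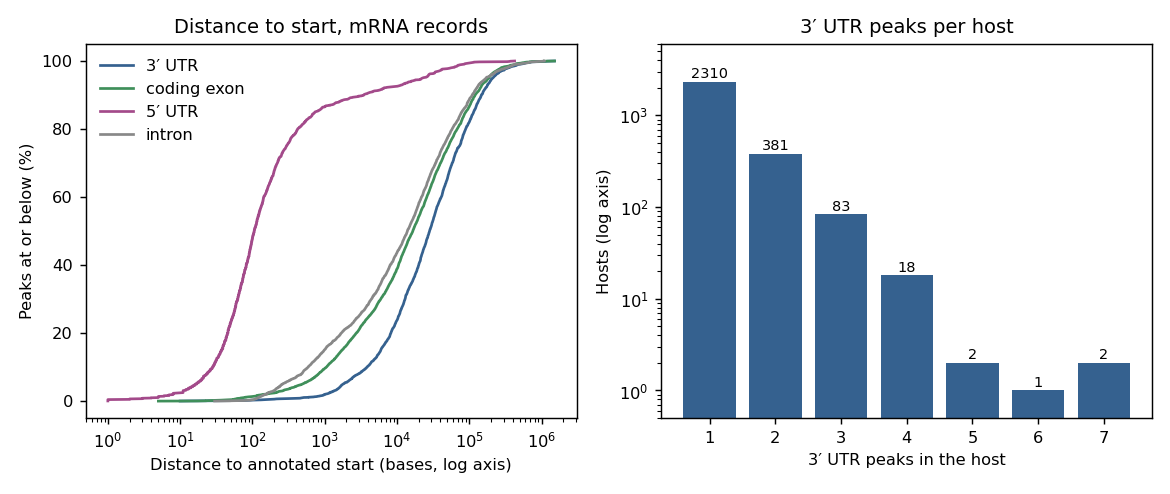
Left, percent of peaks at or below each distance from the annotated start, in bases on a log axis, for mRNA records; the 3′ UTR curve (median 28245 bases) lies to the right of the others. Right, number of hosts (log axis) by number of 3′ UTR peaks in the host, from 2310 hosts with 1 to 2 hosts with 7.

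Of the 2797 hosts 816 also had a coding exon peak (29.2%, which was 21.2% of the hosts of coding exon peaks). A peak in an intron was listed for 494 hosts (17.7%), in the 5′ UTR for 297 (10.6%), upstream for 224 and downstream for 46. For 1359 hosts (48.6%, 46.7% to 50.4%) the 3′ UTR was the only class with a peak. Among mRNA hosts these values were 794 with a coding exon peak (33.1%) and 1074 with no other class (44.8%). In all 816 hosts with both, every 3′ UTR peak lay farther from the start than every coding exon peak, an order that the definition of the classes sets.

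Another peak lay on the same transcript for 2279 of the 3423 peaks. On mRNA records the nearest was another 3′ UTR peak for 797 peaks, with a median gap of 327 bases between the edges (quartiles 193 and 822) and 507 of them within 500 bases. For 648 peaks it was a coding exon peak, with a median gap of 900.5 bases (quartiles 279 and 6896) and 235 within 500 bases. Over all records the nearest was in an intron for 315 peaks (median gap 9665 bases), in the 5′ UTR for 140 (13468.5 bases) and upstream of the start for 95 (14305 bases). Gaps are genomic, so an intron between the 2 peaks adds to them. In the 383 mRNA hosts with several 3′ UTR peaks the stretch from the first to the last had a median of 1488 bases (quartiles 1003 and 2361).

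The expression values have no stated unit, and whether they are scaled by transcript length is not given, so levels of different genes are compared here only as deposited values. Of the 2797 hosts 2415 were found in the expression table, 178 of them through an older or newer symbol, and 382 were not. A total of 2231 hosts, on 2229 rows of the table, passed the filter (1 or more in any library), as did 12375 genes in all. The squamous markers KRT5, KRT14, KRT17, KRT6A, S100A2, SOX2 and TP63 were present in all 3 libraries, and leukocyte markers were at or below 0.28. METTL3 itself, which has no 3′ UTR peak in the list, stood at 20.81 (control), 8.35 (knockdown 1) and 4.99 (knockdown 2).

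Knockdown 2 stood apart from the other libraries. CDKN2A was at 0.04, 0 and 144.68 in the control, knockdown 1 and knockdown 2. HOXB9 was at 0.03, 0.35 and 53.12, and the mesenchymal marker VIM at 87.02, 88.05 and 311.17. The other 3 mesenchymal markers did not follow, with COL1A1 at 3.34, 3.6 and 3.59 and COL1A2 and DCN at or below 0.07 in every library. Of 6 markers of kidney or HeLa type cells, CDKN2A and HOXB9 made up nearly the whole sum in knockdown 2. PAX8 was at 4.11, 3.51 and 3.66, and PAX2, WT1 and LHX1 were at or below 0.78. The sum of the 7 squamous markers was 4461.94, 4335.53 and 2689.28. The SD over genes of the log2(value + 1) difference from control was 0.28 for knockdown 1 and 0.49 for knockdown 2. In bulk libraries fewer cells of a type and less RNA per cell cannot be told apart. The part of these differences in the results below was not tested, and every result is given for each library.

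In the control the tested hosts had a median value of 9.64 (quartiles 3.9 and 20.92), against 9.86 (3.33 and 27.5) for all genes tested. The medians of the hosts were 9.08 in knockdown 1 and 9.26 in knockdown 2. Genes with no listed peak reached higher, with a median of 10.6 and an upper quartile of 35.2. Genes with coding exon peaks and none in the 3′ UTR were lower, with a median of 6.78 and an upper quartile of 16.1.

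Hosts were most frequent at middle values. A 3′ UTR peak was listed for 271 of 6591 genes with a control value under 1 (4.11%, 3.66% to 4.62%), 621 of 3446 from 1 to 5 (18.0%, 16.8% to 19.3%), 934 of 4281 from 5 to 20 (21.8%, 20.6% to 23.1%) and 541 of 3035 from 20 to 100 (17.8%, 16.5% to 19.2%). The share was 46 of 795 from 100 to 1000 (5.79%, 4.37% to 7.63%), and 0 of 101 genes at 1000 or more had such a peak, which allows a share of up to 3.66%. Coding exon peaks were most frequent lower down, at 36.8% of genes from 1 to 5 and 32.0% from 5 to 20, and were in 7.04% of genes from 100 to 1000. The depth of the m6A libraries is unknown.

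The host with the highest control value was EEF2, the elongation factor that moves the ribosome along mRNA, at 538.37, followed by P4HB, a disulfide isomerase of the endoplasmic reticulum, at 504.19. SLC2A4RG (338.32), a transcription factor, UBE2L3 (320.01), a ubiquitin-conjugating enzyme, and STMN1 (293.62), which destabilises microtubules, came next. The others of the 10 highest were TOMM6, IER3, GOSR1, NDUFA13 and C19orf43, from 287.06 down to 214.96. The 3 peaks of UBE2L3 were on a non-coding record.

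Gene lists differed in how many of their tested members had a 3′ UTR peak, beside 18.0% of all genes tested. The lists were written with earlier results of these data known, and the shares are descriptions. Of 83 cytosolic ribosomal proteins 1 had such a peak (1.20%, 0.213% to 6.51%), RPL7L1, whose name marks it as a relative of a ribosomal protein. None of 34 proteasome subunits had it (up to 10.2%), and of 83 respiratory chain subunits it was 2, NDUFA13 and COX6B2 (2.41%, 0.663% to 8.37%). These lists had high control values, with medians of 1368.36, 79.6 and 143.49. Among 78 mitochondrial ribosomal proteins, with a median of 50.5, 8 had a peak (10.3%, 5.29% to 19.0%), and of 21 keratins only KRT80 did.

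Other lists had higher shares. Solute carriers, selected by the symbol prefix SLC, had it in 62 of 214 (29.0%, 23.3% to 35.4%), and ZNF zinc finger genes in 94 of 348 (27.0%, 22.6% to 31.9%), with 191 of the latter carrying a coding exon peak. Growth factor receptors and MAPK genes had it in 11 of 31 (35.5%, 21.1% to 53.1%), PI3K, AKT and mTOR genes in 9 of 25 (36.0%, 20.2% to 55.5%) and HOX genes in 11 of 35 (31.4%, 18.6% to 48.0%). Of the 8 tested Notch receptors and ligands 4 had it (50.0%, 21.5% to 78.5%), and with so few members the interval is wide.

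**Figure D4:**
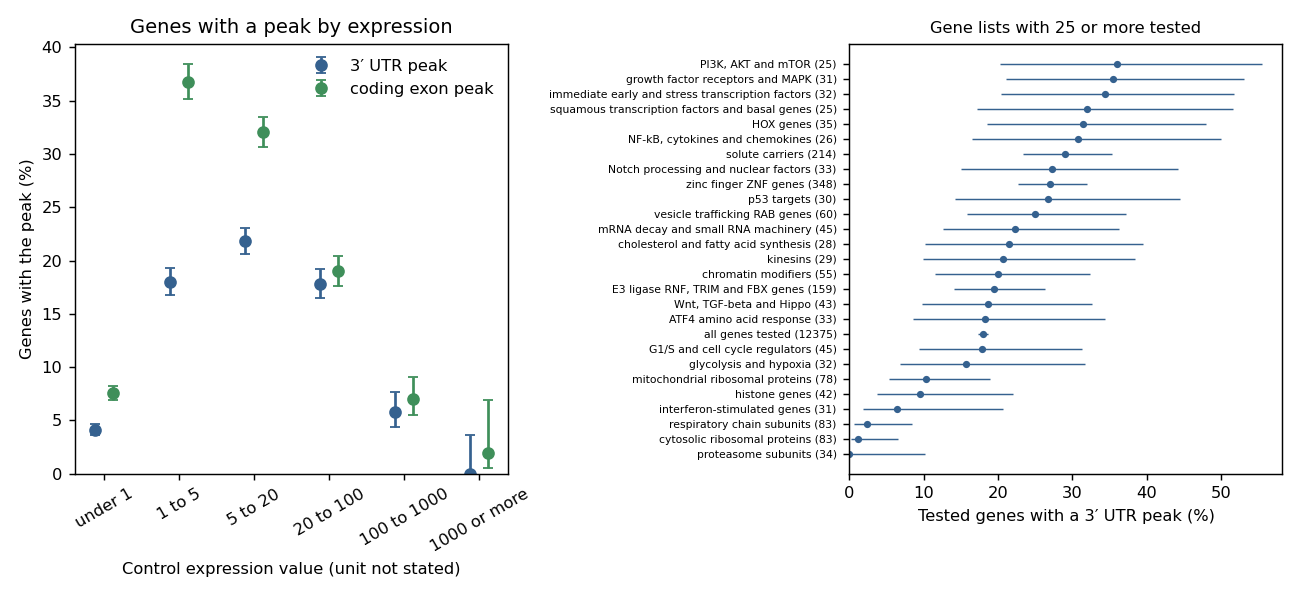
Left, percent of genes in the expression table with a 3′ UTR peak (blue) or a coding exon peak (green) by deposited control value, with 95% Wilson intervals; the 3′ UTR share is highest at 21.8% from 5 to 20. Right, percent of tested genes with a 3′ UTR peak in each list with at least 25 tested members (number tested in brackets), with 95% Wilson intervals, beside 18.0% of all genes tested.

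Genes of the m6A machinery had 3 hosts, and the intervals of their shares hold the 18.0% of all genes tested. Of 12 tested writer genes only PCIF1, which methylates the first transcribed adenosine beside the cap, had a 3′ UTR peak (8.33%, 1.49% to 35.4%), 246 bases wide. It had 35.76 in control cells, 37.89 with knockdown 1 and 30.84 with knockdown 2, so that the knockdown libraries lay on either side of the control. Of 17 erasers and readers, YTHDF2 and YTHDF3 had 1 each (11.8%, 3.29% to 34.3%). YTHDF2 was at 21.08, 21.36 and 26.66, and YTHDF3, a reader tied to translation and decay, at 6.95, 7.24 and 7.34, both with the control lowest.

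Notch signalling is set off when a ligand on a neighbouring cell pulls on the receptor, which is then cut so that its intracellular part enters the nucleus. The ligand JAG2 had a 3′ UTR peak of 379 bases at positions 105608300 to 105608679 of chromosome 14, 264 bases from a coding exon peak. It had 28.27 in control cells, 22.58 with knockdown 1 and 21.19 with knockdown 2, lower than control in both. The ligand DLL1 was at 1.49, 1.08 and 1.57, on either side of the control. The receptor NOTCH1, with a peak of 255 bases that lay 847 bases from a coding exon peak, was at 3.94, 3.42 and 2.81. NOTCH2, with a peak of 774 bases, was at 4.15, 4.71 and 5.18, the opposite order.

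Among the 9 hosts in the list of Notch processing and nuclear factors, POFUT1, which adds the O-fucose that ligand binding needs, was at 27.28, 21.56 and 20.21. FBXW7, the ubiquitin ligase subunit that marks the cleaved receptor for degradation, was at 4.07, 3.12 and 2.76. The co-repressor NCOR1 (38.33, 36.91 and 32.13) also had the control highest. SPEN, another co-repressor, was at 5.07, 3.28 and 8.33, with the control between the knockdown libraries, as was NUMBL (5.82, 5.01 and 8.75), an inhibitor of the receptor. PSEN2, a catalytic subunit of gamma-secretase, had the control lowest (2.75, 3.11 and 4.14). Of the 9, 7 were lower than control in knockdown 1 and 6 in knockdown 2. The median differences of the 9 on the log2(value + 1) scale were -0.18 in knockdown 1 and -0.25 in knockdown 2, beside -0.014 and 0.00055 for all genes tested. Of 15 target genes 3 had a 3′ UTR peak, NRARP, SOX9 and HEYL. NRARP, a feedback inhibitor of the pathway, was at 12.17, 8.16 and 21.41, and HEYL, a transcriptional repressor whose peak was 1418 bases wide, at 1.98, 1.83 and 2.6. No Notch host was past 2-fold in either library. Of all genes tested 0.242% were higher and 0.404% lower in knockdown 1, and 3.64% and 0.978% in knockdown 2.

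As a group the hosts shifted little. The median difference from control on the log2(value + 1) scale was -0.027 in knockdown 1 (quartiles -0.19 and 0.13) and -0.041 in knockdown 2 (quartiles -0.26 and 0.17), where all genes tested had -0.014 and 0.00055. Genes with coding exon peaks and none in the 3′ UTR were at -0.028 and -0.012, and genes with no listed peak at -0.0015 and 0.041. Hosts with no peak in another class were at -0.023 and -0.0065, and hosts that also had coding exon peaks at -0.047 and -0.052. At control values from 1 to 100, hosts and genes with coding exon peaks only were closer in knockdown 2. Their medians were 0.016 and 0.035 from 1 to 5, -0.052 and -0.040 from 5 to 20, and -0.115 and -0.108 from 20 to 100. Genes with no listed peak were at 0.055, 0.024 and -0.018 in these ranges. Under 1, hosts and genes with coding exon peaks only were at 0.64 and 0.42. From 100 to 1000 they were at -0.21 and -0.081. In both of these outer ranges they were farther apart. Lower than control were 53.8% of hosts in knockdown 1 and 55.2% in knockdown 2, against 52.1% and 49.7% of all genes. Genes under 1 in the control passed the filter only through a knockdown library. In knockdown 2 the 87 such hosts had a median of 0.64, and the 483 such genes with no listed peak 0.94. They are part of the group medians and shares above, and their weight in them was not tested. With hosts on mRNA records only the medians were -0.028 and -0.041. Quantile normalization took them to -0.0053 and -0.075, and scaling the columns to equal sums to -0.046 and -0.079. Scaling to equal sums moves every gene of a library in the same direction. The medians of all genes tested under these settings are not given here, so these moves cannot be read as changes particular to hosts.

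The median was lower in hosts with more 3′ UTR peaks. In knockdown 1 it was -0.024 for 1862 hosts with 1 peak, -0.032 for 294 with 2 and -0.092 for 73 with 3 or more. In knockdown 2 it was -0.033, -0.075 and -0.14. Of the 73 hosts with 3 or more peaks 68.5% were lower than control in knockdown 1 and 64.4% in knockdown 2. These differences have no replicate check within a library, and hosts with more peaks also had lower control values, with medians of 9.85, 8.19 and 7.18.

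Within ranges of the control value the pattern was uneven. From 20 to 100, the medians of 77 hosts with at least 2 peaks were -0.075 and -0.23 in the knockdown libraries, and 464 hosts with 1 peak 0.0068 and -0.092. From 5 to 20, 148 hosts with at least 2 peaks had -0.057 and -0.12, and 786 with 1 peak -0.060 and -0.043. From 1 to 5, 126 hosts with at least 2 peaks had -0.059 and 0.0066, and 495 with 1 peak -0.036 and 0.018. A lower value for at least 2 peaks was thus present in all 3 ranges in knockdown 2, and in knockdown 1 in 2 of them. The ranges under 1 and from 100 to 1000 held 10 and 6 hosts with at least 2 peaks, too few to compare.

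Among the hosts with 3 or more peaks, the following were chosen after their values were seen. SDC1, a heparan sulfate proteoglycan of epithelial cells with 3 peaks, stood at 161.42 (control), 125.91 (knockdown 1) and 101.22 (knockdown 2). ECE1, the enzyme that activates endothelin, had 3 peaks and was at 36.35, 24.56 and 25.62. PPARA was at 7.08, 4.67 and 5.1, and CHST3 at 4.66, 3.76 and 2.57, all of them highest in the control. SMAD6, an inhibitor of BMP signalling with 3 peaks, went the other way, at 7.49, 12.29 and 11.95. ERC1, with 7 peaks in the class, was at 3.22, 3.12 and 2.88.

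The limma test of knockdown against control, over all 12375 genes with Benjamini-Hochberg adjustment, called 0% of genes, and 0 hosts, at an adjusted p of 0.05. At an unadjusted p of 0.05 it called 27 hosts (1.21%), beside 1.31% of all genes tested. With 1 control library the spread came from the 2 knockdown libraries alone. A size rule was therefore used for single hosts, at least 2-fold on the log2(value + 1) scale in a library.

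In knockdown 1, 2 hosts were at least 2-fold higher and 10 at least 2-fold lower among 2229, which is 0.0897% and 0.449%, beside 0.242% and 0.404% of all genes tested. In knockdown 2, 50 hosts were higher (2.24%) and 17 lower (0.763%), beside 3.64% and 0.978% of all genes. Of the 50, 24 had a control value under 1 and passed the filter only because a knockdown library was higher, so they had to differ. The counts depend on the pseudocount. With 0.1 in place of 1, 16 hosts were higher (0.718%) and 19 lower (0.852%) in knockdown 1, beside 0.954% and 1.15% of all genes, and 95 were higher (4.26%) and 42 lower (1.88%) in knockdown 2, beside 5.67% and 2.15%.

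NGFR and PGF were the hosts at least 2-fold lower than the shared control in both libraries, where 0.097% of all genes were. NGFR, the low-affinity neurotrophin receptor that marks basal squamous cells, had 2 wide 3′ UTR peaks of 956 and 769 bases, 305 bases apart, at positions 47589977 to 47592007 of chromosome 17. It had 43.61 in control cells, 18.25 with knockdown 1 and 18.72 with knockdown 2. The knockdown libraries were close to each other and well below the control, with a log2 difference of -1.20 (SE 0.24, limma unadjusted p = 0.0024). PGF, placental growth factor, had a peak of 310 bases on chromosome 14 and was at 12.31, 4.84 and 5.03, a log2 difference of -1.17 (SE 0.24, limma unadjusted p = 0.0031). After adjustment over all genes neither passed the limma threshold, with an adjusted p of 1.00 for each. Among hosts at least 2-fold higher in both libraries there was none, where 0.0323% of all genes were.

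Other hosts past 2-fold were chosen after their values were seen. In knockdown 1 RAB43, a GTPase of Golgi traffic, stood at 5.76 (control), 1.94 (knockdown 1) and 2.6 (knockdown 2). PXDN, a peroxidase that crosslinks collagen IV, was at 6.04, 1.89 and 2.84, and KREMEN2, a co-receptor for Dickkopf, at 10.63, 4.72 and 5.77. In these hosts both knockdown libraries lay below the control. TNFSF10, the death ligand TRAIL, was at 15.45, 5.62 and 16.39, so that only knockdown 1 was low. The 2 higher hosts were IGFBP3 (2.98, 9.78 and 6), which binds insulin-like growth factors, and SLC1A4 (4.1, 9.51 and 4.17), a transporter of neutral amino acids.

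In knockdown 2 the lower hosts included 3 of the 11 in the list of growth factor receptors and MAPK genes, beside 0.978% of all genes tested. DUSP6, a phosphatase of ERK, stood at 9.97 (control), 10.27 (knockdown 1) and 2.77 (knockdown 2). SPRY4, an inhibitor of receptor tyrosine kinase signalling, was at 3.82, 4.41 and 0.99, and DUSP4 at 4.32, 5.25 and 1.66. In all 3 the control and knockdown 1 were alike and only knockdown 2 was low. SDC4, a heparan sulfate proteoglycan of focal adhesions, was at 108.21, 92.54 and 51.54, and IER3, an immediate early gene whose peak was 750 bases wide, at 285.74, 206.56 and 108.97.

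The hosts at least 2-fold higher in knockdown 2, as 3.64% of all genes tested were, included 2 of the 11 HOX hosts, HOXB6 and HOXB13. HOXB6 stood at 0.12 (control), 0.54 (knockdown 1) and 14.54 (knockdown 2). HOXB13, with 2 peaks in its 3′ UTR, was at 0.41, 0.99 and 2.87. Both passed the filter through knockdown 2 alone and so had to be higher there. Their count therefore cannot be read against the 3.64% of all genes. The other HOX hosts were not past 2-fold in either library. Those with the highest control values were HOXC10 (66.5, 76.06 and 69.49), HOXA7 (31.28, 38.38 and 23.32), HOXD11 (15.31, 14.69 and 18.46) and HOXC13 (8.89, 13.42 and 10.38). The homeobox gene DLX2 was at 0.89, 2.3 and 10.11 and passed the filter only through the knockdown libraries. NKX2-5 was at 2.74, 3.96 and 14.9, and the forkhead gene FOXC1 at 4.56, 7.99 and 26.99. ID2, which blocks basic helix-loop-helix factors, was at 8.85, 13.29 and 51.11, and TSC22D3, a glucocorticoid-induced gene, at 16.57, 16.96 and 64.75. EEF2 was at 538.37, 434.85 and 1312.32. NKX2-5, FOXC1, ID2, TSC22D3 and EEF2 were above 1 in every library. That knockdown 2 was above the control in them follows from how they were chosen.

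**Figure D5:**
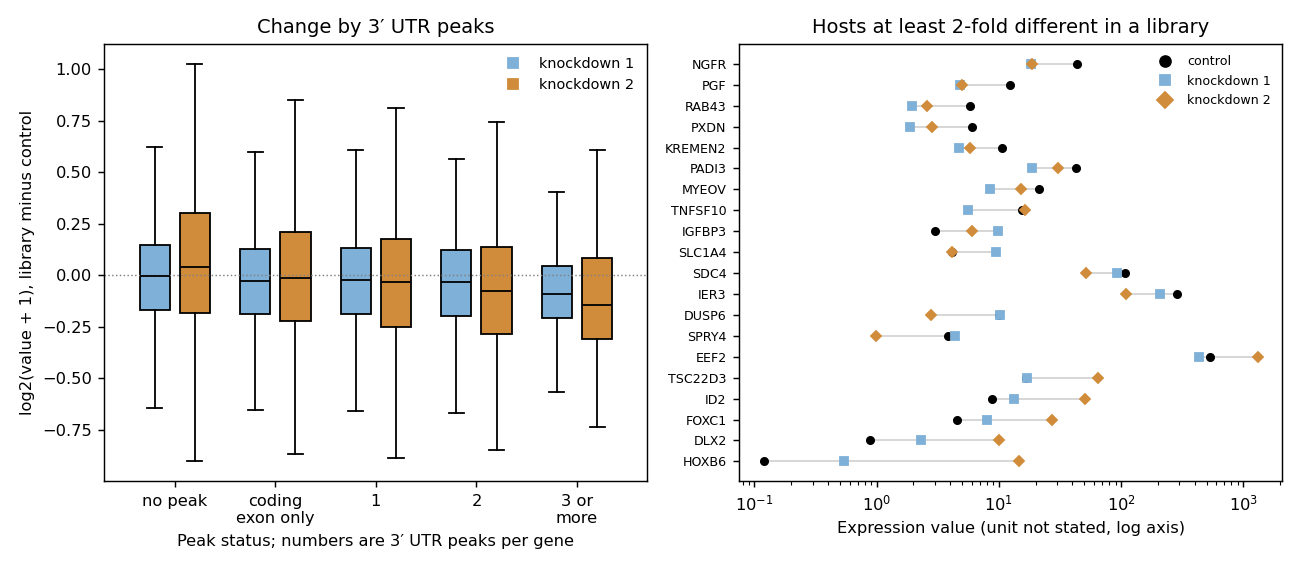
Left, log2(value + 1) in each knockdown library minus control (boxes, quartiles with the median as a line; whiskers reach the last value within 1.5 interquartile ranges) for tested genes with no listed peak, with coding exon peaks and none in the 3′ UTR, and with 1, 2 and 3 or more 3′ UTR peaks; the lowest medians, -0.092 and -0.14, are at 3 or more. Right, deposited values (log axis) of 20 hosts at least 2-fold different in a library, all but NGFR and PGF chosen after their values were seen (where the control point is hidden it lies under a knockdown point); NGFR is at 43.61 in the control and at 18.25 and 18.72 in the knockdown libraries, and HOXB6 reaches 14.54 in knockdown 2 only.

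Of 28 tested genes of cholesterol and fatty acid synthesis 6 had a 3′ UTR peak, and their median differences were -0.55 in knockdown 1 and -0.35 in knockdown 2. MVD, an enzyme of the mevalonate pathway, stood at 30.61 (control), 20.05 (knockdown 1) and 23.7 (knockdown 2). DHCR7, which acts late in cholesterol synthesis, was at 102.45, 89.77 and 78.6. In both genes the control was the highest library.

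Hosts of the ATF4 amino acid response differed between the libraries. There were 6 among 33 tested genes, with median differences of 0.50 in knockdown 1 and 0.14 in knockdown 2. SLC7A5, the large neutral amino acid transporter with 2 peaks in its 3′ UTR, was at 154.26, 282.61 and 168.58. TRIB3, a pseudokinase induced by ATF4, was at 23.49, 45.07 and 26.34, and in both genes knockdown 1 stood out. CHAC1, which breaks down glutathione, was at 4.35, 9.5 and 13.62, with both libraries above the control. SESN2, an inhibitor of mTORC1, was at 6.26, 4.63 and 19.02. The remaining hosts, CEBPB (107.57, 109.24 and 86.76) and SLC7A1 (15.4, 16.86 and 15.47), stayed near the control in knockdown 1. CEBPB was below the control in knockdown 2, so the medians do not describe a uniform rise.

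Of 25 tested squamous transcription factors and basal genes 8 had a 3′ UTR peak, with median differences of -0.082 and -0.42. ITGA6, the integrin of hemidesmosomes, was at 21.71, 15.37 and 10.86, and BNC1, a zinc finger protein of basal keratinocytes, at 11.47, 7.26 and 5.69, both highest in the control. GRHL2, an epithelial transcription factor with 4 peaks in its 3′ UTR, was at 15.03, 14.17 and 10.74. PITX1, with the highest control value of the 8, was at 46.22, 44.53 and 41.55, and TFAP2A at 23.28, 21.89 and 27.69. The sum of the squamous markers, none of which is a host, was also lower in knockdown 2 (2689.28 against 4461.94 in the control), and its part in these values was not tested.

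The receptor MET, with 2 peaks in its 3′ UTR, stood at 23.39 (control), 17.74 (knockdown 1) and 11.73 (knockdown 2). TGFA, a ligand of the EGF receptor with a peak of 926 bases, was at 19.3, 17.3 and 11.34. The GTPase HRAS was at 33.15, 44.44 and 31.97 and so did not share the order of the receptor and ligand. Over the 11 hosts among growth factor receptors and MAPK genes the median difference was 0.080 in knockdown 1 and -0.56 in knockdown 2. For all genes tested it was -0.014 and 0.00055. Of the 11, 3 were at least 2-fold lower in knockdown 2, DUSP6, SPRY4 and DUSP4, beside 0.978% of all genes tested. None were past 2-fold in knockdown 1, where 0.242% of all genes were higher and 0.404% lower.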

How the data were processed

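The authors aligned reads with TopHat2, counted with HTSeq and called peaks with MACS2, per the submitters' processing notes, which name build hg38; versions, parameters and pooling of the immunoprecipitations are not stated in these sources. Peaks reach position 249212571 on chromosome 1, beyond the last hg38 gene (248937099), and 16 are on older contig names, so the build was not taken to be hg38. Coordinates are as deposited, and width is end minus start. The deposited expression signal has no stated unit; its 3 columns sum to 608291, 617840 and 627152, so depth is unknown. Values were compared as log2(value + 1) with limma 3.58.1 (R 4.3.3, moderated variances, mean-variance trend). Benjamini-Hochberg adjustment was over all 12375 genes reaching 1 in any library. The procedure was tested only on simulated data with equal noise in every library and the same change in both knockdown libraries. The knockdown libraries here differ in spread, which that simulation did not cover. The log2(value + 1) scale understates changes of low genes. Symbols were matched through RefSeq's GRCh38.p14 table and older names.

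The 33 gene lists and the hosts named were chosen with earlier results of these data known. Named hosts are those with the most, widest, narrowest, farthest and nearest peaks, the highest control values, and at least 2-fold in both libraries. Members of the lists were also named, outside the m6A and Notch lists those with the highest control values. BNC1, GRHL2, CHAC1, SESN2, AGO1, AGO4 and TNRC6C are list members named outside these rules, with their values known. Other exceptions are marked. Alternatives were the pseudocount, filter, scaling, trend, merging of peaks, chromosomes, denominators, leaving out a knockdown library, and, chosen after seeing the data, mRNA records only. Intervals came from scipy 1.17.1, tables from pandas 2.3.3 and plots from matplotlib 3.10.9 (Python 3.11.15). Some hosts are not reported here.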

Additional observations from a re-analysis of the deposited data

How the results depend on the processing

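Across 13 results and 68 alternatives, 51 values stayed close to the reported one and 17 moved; no median changed sign, and limma called 0 hosts in every setting run. The median host difference in knockdown 1 (-0.027) was -0.017 for genes with a mean of at least 5, -0.0053 after quantile normalization and -0.046 with columns scaled to equal sums. In knockdown 2 (-0.041) these were -0.062, -0.075 and -0.079. The mean of both (-0.032) was -0.047 for genes with a mean of at least 5 and -0.062 with equal sums. It ranged from -0.041 to -0.027 on leaving out either knockdown library. Quantile normalization and equal sums act on all genes, whose medians under them are not given here. With a pseudocount of 0.1 the hosts past 2-fold were 16 higher and 19 lower in knockdown 1 and 95 higher and 42 lower in knockdown 2, beside 0.954%, 1.15%, 5.67% and 2.15% of all genes. With a mean of at least 5, where fewer genes are tested, 20 were higher in knockdown 2. The 3′ UTR share was 32.0% of exonic and UTR peaks and 20.4% on mRNA records, where the median distance was 28245 bases. The median control value over all 2415 hosts, 8.04, was 10.2 for those at 1 or more. No paired analysis was possible because both knockdown libraries share the single control library. Peaks have no depth or replicate values, so their presence could not be checked.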

Other observations

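By chromosome, the share of peaks in the 3′ UTR ranged from 13.4% (36 of 269) on chromosome 13 to 26.0% (141 of 543) on chromosome 22 among the autosomes and X. Chromosome 1 held the most 3′ UTR peaks, 335, followed by chromosome 17 with 266, chromosome 16 with 228 and chromosome 19 with 227. Unplaced contigs held 3.

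Hosts among the mRNA decay and small RNA machinery numbered 10 of 45 tested (22.2%), with median differences of -0.14 in knockdown 1 and -0.035 in knockdown 2. The Argonaute gene AGO1 stood at 6.99 (control), 5.4 (knockdown 1) and 5.29 (knockdown 2), AGO2 at 9.76, 8.39 and 7.48, and AGO4 at 5.07, 3.24 and 4.88, each with the control highest. TNRC6C, a partner of Argonaute proteins with 3 peaks in its 3′ UTR, was at 1.37, 1.33 and 0.93. Others went above the control in a library, CNOT2 at 16.76, 19.19 and 16.47, ZFP36L2 at 8.21, 7.83 and 11.53 and UPF1 at 11.58, 10.84 and 11.97. The 8 hosts among 26 tested NF-kB, cytokine and chemokine genes had median differences of -0.15 and -0.42. TNFAIP2 was at 66.5, 55.66 and 42.9, and TNIP1, an inhibitor of NF-kB, at 82.38, 74.85 and 62.3. NFKBIE, at 4.8, 4.3 and 5.43, was above the control in knockdown 2. Of the 8, 7 were lower than control in knockdown 1 and 6 in knockdown 2. Of the kinesins 6 of 29 were tested hosts, and KIF13A was at 14.16, 9.54 and 9.8.

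Outside the UTR classes, peaks on records other than mRNA were on plus-strand transcripts in 53.8% of 533 intron peaks and 79.6% of 98 downstream peaks.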
